A study of Mus musculus with 6 samples.

Results

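The mitochondrial ribosomal protein genes were taken as every gene whose symbol in the array annotation begins with Mrpl or Mrps and a digit. The rule found 72 of the 16839 gene symbols on the arrays. Of these, 44 carry names of the large subunit (Mrpl) and 28 carry names of the small subunit (Mrps), and all 72 symbols are still current in the RefSeq table used. The name does not always give the place: the products of Mrps18a and Mrps30 sit in the large subunit, and that of Mrps36 belongs to the 2-oxoglutarate dehydrogenase complex. The genes had 1641 probes, 38 genes on the first array design and 34 on the second.

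The study measured promoter occupancy by chromatin immunoprecipitation on promoter arrays (ChIP-chip) in C2C12, a line of mouse myoblasts in which low serum brings on fusion into myotubes. The groups were cells infected with a retroviral vector for TEAD4 carrying Flag and HA tags (2 samples, called duplicates in the labels) and cells infected with the empty vector (control, 1 sample). All cells were infected populations kept in puromycin and differentiated for 5 days (2% horse serum). They were crosslinked with formaldehyde at 0.4%, and an anti-Flag antibody was used for the immunoprecipitation. Each sample was hybridised to 2 Agilent promoter array designs, precipitated DNA (IP, Cy5) against input DNA (Cy3), which makes 6 arrays. The duplicates may be of 1 culture or of several, as the labels leave unsaid. The p-values rest on the spread between these duplicates, pooled in part over all windows, and it may be technical. The control, as 1 sample, adds no spread of its own, so p-values against the control do not measure how controls vary. The labels name neither the promoter that drives the tagged TEAD4 nor its level against the cells' own TEAD4. Promoter arrays measure no expression, so myotube markers were not checked.

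The mitochondrial ribosome translates the few proteins that mitochondrial DNA encodes, all of them subunits of the oxidative phosphorylation complexes. Its RNAs come from mitochondrial DNA, whereas its proteins are encoded by nuclear genes, made in the cytosol and imported. Many nuclear genes of mitochondrial proteins have promoters with sites for ETS-family factors such as GABP and for NRF1. TEAD4 is a transcription factor of the TEA domain family that binds the element GGAATG, which reads CATTCC on the other strand and is known from promoters of muscle genes, and works with the co-activators YAP and TAZ. The comparison asked which promoters the tagged factor occupied.

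The promoters of Mrpl22 and Mrps12 are printed first because these were the 2 genes whose start region exceeded input 2-fold in both TEAD4 samples. The sequences are those of RefSeq on GRCm38.p6, 5′ to 3′ along the gene's strand, from 250 bases before the transcript start to 50 after it. In the Mrpl22 line the capitals mark CATTCC at position -95, counted from the first transcribed base as 0, and CCGGAAG, a core ETS-family element, at -53. In the Mrps12 line they mark CCGGAAG at position 1. Mrps12 held no GGAATG or CATTCC in this window, which says only that these letters are not there.
Mrpl22, chr11:58171414-58171713 (+): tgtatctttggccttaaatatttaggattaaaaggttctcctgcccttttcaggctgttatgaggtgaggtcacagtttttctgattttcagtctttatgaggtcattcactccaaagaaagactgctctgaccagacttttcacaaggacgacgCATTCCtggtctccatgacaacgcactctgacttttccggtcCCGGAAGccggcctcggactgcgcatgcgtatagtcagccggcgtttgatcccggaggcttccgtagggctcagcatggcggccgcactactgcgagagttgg
Mrps12, chr7:28741772-28742071 (-): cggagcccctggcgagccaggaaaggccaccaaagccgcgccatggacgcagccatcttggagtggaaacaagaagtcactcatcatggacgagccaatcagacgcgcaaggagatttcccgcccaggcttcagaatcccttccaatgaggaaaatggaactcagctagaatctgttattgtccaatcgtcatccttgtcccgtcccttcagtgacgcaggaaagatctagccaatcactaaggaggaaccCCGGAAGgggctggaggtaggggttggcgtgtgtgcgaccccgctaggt

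Signal over input was low at most of these promoters. Levels are log2 of IP over input, centred on each array's median, so 0 is the array's typical probe and 1 is 2-fold over it. Input level and 2-fold over input are meant in this centred sense throughout. Before centring, the deposited log10 ratios had medians of -0.18 and -0.16 on the control arrays. On the TEAD4 arrays these medians lay between -0.005 and 0.001. Centring thus raised the control levels above their deposited ratios and hardly moved those of TEAD4. The start-region level is the mean over probes within 500 bp of the annotated start, and 70 of the 72 genes had at least 2 such probes. Mrpl44 and Mrps21 had fewer. Over the 70 genes the median start-region level was 0.36 in TEAD4 sample 1 and 0.34 in TEAD4 sample 2, against 1.40 in the control sample. Over all 15683 genes with a start region these medians were 0.20 and 0.15 in the TEAD4 samples, against 1.35 in the control. The gene medians therefore stood above those of all genes in each TEAD4 sample, while the control sample was higher still, for these genes and for all genes.

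**Figure D1:**
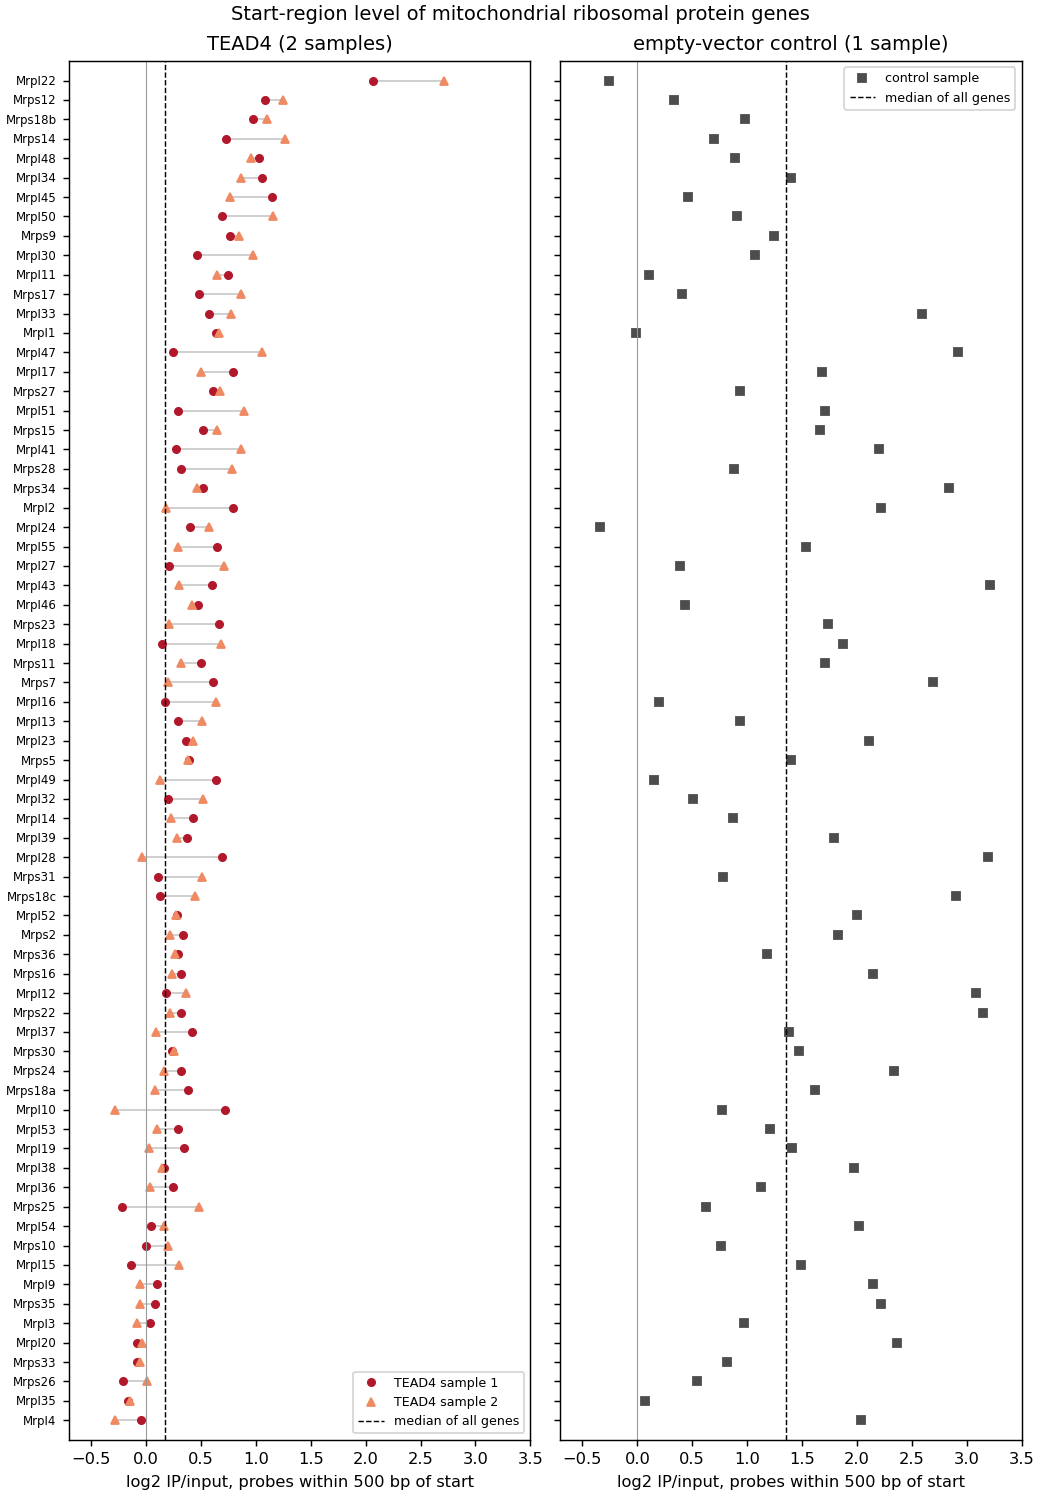
Start-region log2 IP/input of the 70 mitochondrial ribosomal protein genes with at least 2 probes within 500 bp of the start, ordered by the mean of the TEAD4 samples (left panel, circles sample 1, triangles sample 2) with the control sample on the right (squares); dashed lines are the medians over all genes, 0.17 for the TEAD4 mean and 1.35 for the control. Mrpl22 stands apart at the top with 2.07 and 2.71 in the TEAD4 samples, and -0.26 in the control.

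The start region was above 0 in both TEAD4 samples for 58 of the 70 genes (82.9%), where 58.8% of all genes were. It was at least 2-fold over input in both for 2 of the 70 (2.86%), where 1.12% of all genes were. Most of these promoters thus lay between input level and 2-fold. The 2 duplicates ordered the genes only loosely: across the 70 genes Pearson's r was 0.66 and Spearman's rho 0.45, and without Mrpl22 r was 0.50 over 69 genes. The median gap between the duplicates of a gene was 0.20. For the mean of the TEAD4 samples the median over these genes was 0.39, and that over all genes 0.17. These correlations are across genes that share arrays and probes, and are given as a description.

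**Figure D2:**
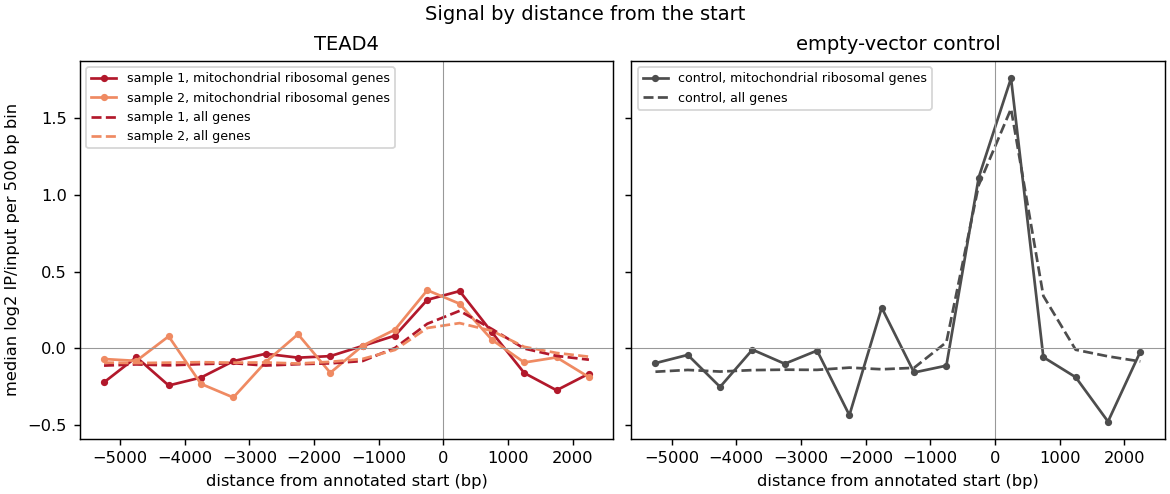
Median log2 IP/input in bins of 500 bp by distance from the annotated start, TEAD4 samples on the left and the control sample on the right, with solid lines for mitochondrial ribosomal protein genes and dashed lines for all genes. The lines of these genes peak in the 2 bins next to the start, at 0.32 and 0.37 in TEAD4 sample 1, 0.38 and 0.29 in TEAD4 sample 2, and 1.11 and 1.76 in the control.

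The signal was centred on the starts. In the bin of 500 bp before the start the median over 63 genes was 0.32 in TEAD4 sample 1 and 0.38 in sample 2, against 1.11 in the control. In the bin of 500 bp after it the median over 69 genes was 0.37 and 0.29 in the TEAD4 samples, against 1.76 in the control. From 1000 to 1500 bp downstream the medians over 60 genes were below 0, at -0.16 and -0.09 in the TEAD4 samples and -0.19 in the control. All genes showed the same place with lower TEAD4 medians, 0.16 and 0.24 before and after the start in sample 1, 0.13 and 0.16 in sample 2, and 1.06 and 1.56 in the control.

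Mrpl22 encodes a large-subunit protein that lines the exit tunnel for the new chain. Its start region, 4 probes on chromosome 11, stood at 2.07 and 2.71 in the TEAD4 samples, against -0.26 in the control. It was the highest of the 70 genes in both TEAD4 samples and the second lowest in the control. The mean of the TEAD4 samples was 2.39 ± 0.45 (SD, n = 2) and lay 2.65 above the control value.

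The probes of Mrpl22 place this signal at the gene's start, in distances from the start that the array annotates. The probe at -178 bp read 2.10 and 2.89 in the TEAD4 samples and 1.79 in the control. The probe 84 bp after the start read 2.61 and 3.77, against -2.70 in the control. The probes 243 and 406 bp after it read 1.64 and 1.93 in sample 1 and 1.90 and 2.29 in sample 2, against 0.81 and -0.93 in the control. At 406 bp the control's IP signal was not well above background. By 723 bp the signal had ended, at 0.18 and -0.05 in the TEAD4 samples and -1.26 in the control. Upstream, 6 probes of the same gene between -3171 and -1848 bp stayed at or below 1.00 in both TEAD4 samples, while the control reached 3.72 there. No probe of the gene lies between -1848 and -178 bp, so the upstream edge was not measured.

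**Figure D3:**
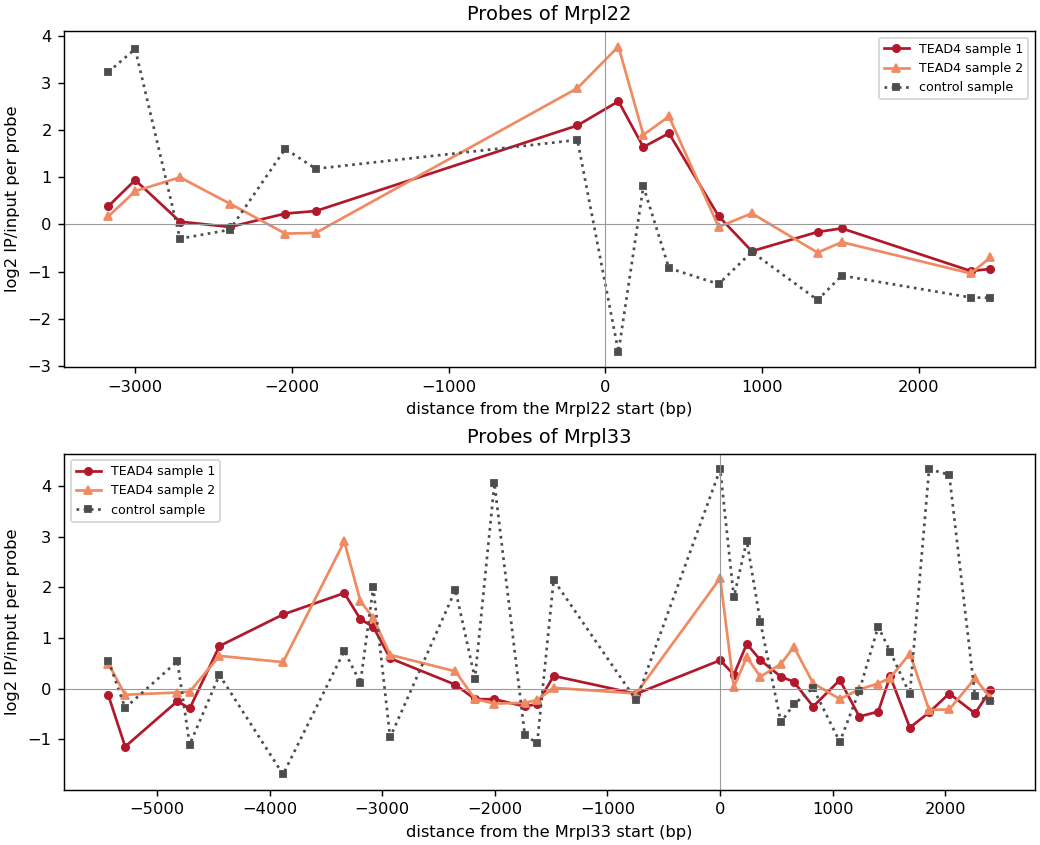
Log2 IP/input of each probe against distance from the start of Mrpl22 (upper panel) and Mrpl33 (lower panel), circles for TEAD4 sample 1, triangles for TEAD4 sample 2 and squares for the control. Mrpl22 rises over 4 probes from -178 to 406 bp, and Mrpl33 has its highest TEAD4 probe at -3336 bp.

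Windows were used to look beyond the start regions. Each window joined a probe to those within 500 bp of it, with a minimum of 3 probes, and 71 of the 72 genes had one (Mrpl44, with 2 probes, had none). The top window of a gene is the one whose lower TEAD4 sample is highest. In Mrpl22 it spanned 57987652 to 57988120 on chromosome 11 in the array's coordinates, whose genome build the labels do not name, and the array annotates it as divergent promoter and gene interior. Its 3 probes averaged 2.12 and 2.85 in the TEAD4 samples, against -0.03 in the control. At least 1 of them is also assigned by the array to Gemin5, a gene of the SMN complex that assembles spliceosomal RNPs. Limma, fitted across all windows of an array design, gave Mrpl22 an adjusted p per gene of 5.7e-06 against input and 3.2e-06 against the control. Against input the window with the lowest p was this top window. Against the control it was another, of 4 probes centred 406 bp after the start. That window averaged 1.59 and 1.98 in the TEAD4 samples, against -1.02 in the control. It holds the probe at 406 bp where the control's IP signal was not well above background. With normexp background correction the adjusted p against the control was 0.056.

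Of the 71 genes with a window, 6 (8.45%) had one that exceeded input 2-fold in both TEAD4 samples, where 5.19% of all 16533 genes with a window did. All 6 but Mrps18b are large-subunit genes: Mrpl22, Mrpl33, Mrpl34, Mrpl48 and Mrpl50. Without TEAD4 sample 1 the count was 17 (2566 of all genes), and without TEAD4 sample 2 it was 8 (1331 of all genes). Mrpl22 alone (1.41%) had a window that exceeded both input and control 2-fold, where 2.55% of all genes did. Arrays brought to a common spread (scaled arrays) gave 16 genes over input and 6 over both, and normexp gave 3 and 3. Without the counts over all genes beside them, these changes cannot be read as particular to these genes.

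Mrpl33, which encodes a small protein of the large subunit, had its signal away from the start. Its top window, 4 probes centred at -3336 bp from the start, averaged 1.27 and 1.67 in the TEAD4 samples, against 0.48 in the control (limma adjusted p = 0.00020 against input). The probe at -3336 bp read 1.89 and 2.90 in the TEAD4 samples and 0.75 in the control. At the probe at -3079 bp the control, with 2.00, was above both TEAD4 samples (1.22 and 1.40). Its start region read 0.57 and 0.77 in the TEAD4 samples, against 2.59 in the control. The TEAD4 samples were thus above the control in the mean of the distant window and below it in that of the start region.

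Mrpl34, another large-subunit gene, had 1.36 and 1.25 in the TEAD4 samples, against 1.05 in the control, in the window centred at -269 bp, which has probes that the array also gives to Abhd8. Its start region stood at 1.06 and 0.87, against 1.40 in the control. The control lay below both TEAD4 samples in the window and above both over the start.

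Mrpl48 had 1.23 and 1.21 in the TEAD4 samples, against 1.96 in the control, in the window centred 363 bp downstream. Its start region read 1.03 and 0.96 in the TEAD4 samples, against 0.89 in the control. The duplicates lay close together in both measures. Mrpl50 had 1.19 and 1.10 in the TEAD4 samples, against 1.95 in the control, in the window centred at -81 bp, which lies at the start that it shares with Zfp189, a zinc finger gene. Its start region spread more, at 0.69 and 1.15 in the TEAD4 samples, with the control between them at 0.91.

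Among small-subunit genes, Mrps12 had the highest start region. Mrps12 encodes a protein of the decoding centre, and its start region, 2 probes on chromosome 7, read 1.08 and 1.25 in the TEAD4 samples, against 0.33 in the control. The TEAD4 samples lay above the control at both probes. At the probe at -122 bp, with 1.38 and 1.54 in the TEAD4 samples and 0.29 in the control, the control's IP signal was not well above background, so the size of the difference is uncertain. Its start lies beside that of Sars2, the mitochondrial seryl-tRNA synthetase, whose start region averaged 1.19 in the TEAD4 samples and 0.87 in the control. The start regions of the pair overlap, so the arrays cannot tell their promoters apart. The limma call of Mrps12 against input (adjusted p = 0.0018) was lost with normexp (0.48) and with at least 5 probes per window (0.40).

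Mrps18b encodes 1 of 3 related S18 proteins, whose genes Mrps18a, Mrps18b and Mrps18c were all on the arrays. The start region of Mrps18b read 0.97 and 1.10 in the TEAD4 samples, with the control at 0.98 between them. At its probe at -232 bp the control's IP signal was not well above background. Its top window, at -727 bp and shared with Ppp1r10 and Atat1, read 1.37 and 1.03 in the TEAD4 samples, against 2.14 in the control. Mrps18a and Mrps18c were lower at the start: Mrps18a read 0.38 and 0.08 in the TEAD4 samples, against 1.62 in the control. Mrps18c read 0.13 and 0.45 in the TEAD4 samples, against 2.90 in the control. Mrps14, a small-subunit gene, read 0.73 and 1.27 over its start in the TEAD4 samples, against 0.70 in the control. Its lower TEAD4 sample and the control were thus nearly equal.

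Below the leading genes the order was not resolved. From Mrps12 (1.17 ± 0.12, SD, n = 2) through Mrps18b, Mrps14, Mrpl48 and Mrpl34 (0.96 ± 0.13) down to the lowest gene, neighbours in the order differed by less than the median gap between duplicates of 0.20. At the low end, Mrpl4 read -0.05 and -0.28 in the TEAD4 samples, against 2.04 in the control. Mrpl35 read -0.17 and -0.14, against 0.07 in the control. Mrps26 read -0.21 and 0.01, against 0.54 in the control, and Mrps33 read -0.08 and -0.06, against 0.82 in the control. These 4 large- and small-subunit genes were at input level in the TEAD4 samples, and their control values ranged widely.

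Genes named for the large and the small subunit overlapped widely. The median start-region level for the mean of the TEAD4 samples was 0.40 over 43 Mrpl genes and 0.31 over 27 Mrps genes. In the control it was 1.40 for each. The split is by name, so the 27 include Mrps18a, Mrps30 and Mrps36, whose products are not in the small subunit by the account above. The middle range between quartiles was 0.21 to 0.62 over the Mrpl genes, and that of the Mrps genes, 0.24 to 0.57, lay within it.

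Several of the genes share their start with a neighbour. In 16 of the genes at least 1 probe of the start region also lay within 500 bp of the annotated start of another gene. Their partners were Lrrc46 (Mrpl10), Mtbp (Mrpl13), Tmem63b (Mrpl14), Tcp1 (Mrpl18), Mitd1 (Mrpl30), Psma2 (Mrpl32), Twnk (Mrpl43), Ndufb5 (Mrpl47), Zfp189 (Mrpl50), Ncapd2 (Mrpl51), Sars2 (Mrps12), Ppp1r10 (Mrps18b), Helq (Mrps18c) and Gga3 (Mrps7). Mrpl46 and Mrps11 share a start with each other, a large-subunit and a small-subunit gene read from 1 promoter region. The median start-region level was 0.43 over the 16 genes with a shared start and 0.32 over the 54 without, for the mean of the TEAD4 samples. The 54 include genes with probes that the array annotates as divergent promoter, Mrpl22 and Mrpl34 among them. In the control the medians ran the other way, at 1.03 and 1.41. Among the partners, Twnk (the mitochondrial DNA helicase), Ndufb5 (a complex I subunit) and Sars2 are themselves mitochondrial.

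The limma test against input called 20 of the 71 genes higher in TEAD4 (28.2%), where 23.9% of all genes were, and 3 lower (4.23%), where 11.8% were. The share called higher was thus close to that of all genes. The called windows of the 20 genes lay within 500 bp of the start in 15, and their means over the TEAD4 samples ran from 0.55 to 2.48, with control values from -0.15 to 4.29. In 9 of the 20, TEAD4 sample 1 was above the control in that window. The count depends on the sample: in Mrpl39 the control (0.85) lay between TEAD4 sample 1 (0.84) and sample 2 (1.38). The matching share over all called genes is not given here. Besides the genes above, the call included Mrpl45, which encodes a protein that ties the ribosome to the inner membrane, with 1.24 and 0.94 in the TEAD4 samples, against 1.63 in the control, at -476 bp. The others called higher were Mrpl2, Mrpl11, Mrpl24, Mrpl30, Mrpl32, Mrpl39, Mrpl43, Mrpl51, Mrps9, Mrps14, Mrps17 and Mrps28. The 3 genes called lower were Mrpl13, Mrpl18 and Mrps18c, singled out after their values were seen, in windows 2028 to 2784 bp downstream of the start where the TEAD4 means were -0.61 to -0.88 and the control -0.41 to 0.93. The split of 20 higher to 3 lower became 14 to 0 with normexp and 25 to 7 with within-array loess. The splits over all genes are not set beside these.

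Against the control most genes read lower in TEAD4. Limma called 13 of the 71 genes higher (18.3%), where 12.4% of all genes were, and 52 lower (73.2%), where 81.0% were. Among the 13, the window of Mrpl22 was the 1 that lay within 500 bp of the start. Over the windows of the 13 the TEAD4 means ran from -0.30 to 1.78 and the control values from -1.89 to -0.89, so each of these calls stood on a window where the control was below 0. Among the 52, 26 windows lay within 500 bp of the start, with TEAD4 means from -0.62 to 1.87 and control values from 0.68 to 4.39. In the control itself 65 of the 71 genes had a window that exceeded input 2-fold after centring (91.5%), where 85.6% of all genes did. By the deposited, uncentred ratios the control levels are lower. The start region was higher than the control in both TEAD4 samples for 9 of the 70 genes (12.9%, against 13.9% of all genes) and lower in both for 54 (77.1%, against 79.2%). These start-region shares were near those of all genes.

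The control arrays differed from the TEAD4 arrays as arrays. The SD of log2 IP/input over windows was 0.38 and 0.40 in the TEAD4 samples and 1.04 in the control, and the IP signal was 3.62 to 5.41 times the local background on the TEAD4 arrays and 1.84 and 2.04 times on the control arrays. The scanner software used an extended dynamic range for the control arrays and not for the TEAD4 arrays, per the file headers. The split of 13 higher to 52 lower became 2 to 3 with normexp, 26 to 40 with within-array loess and 1 to 0 with arrays scaled to a common spread. These changes, too, lack the splits over all genes. The gene still called higher with scaled arrays was Mrpl22. The part of these array differences in the calls against the control was not tested, and with 1 control sample they cannot be told apart from the empty vector.

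The widest gaps to the control came from genes with very high control values. Mrps22 read 0.32 and 0.22 over its start in the TEAD4 samples, against 3.15 in the control. Mrpl28 read 0.69 and -0.04 in the TEAD4 samples, against 3.20 in the control. Both, a small-subunit and a large-subunit gene, had TEAD4 means below the median of the 70 genes and control values at the top of theirs. Mrpl43, which shares its start with Twnk, read 0.60 and 0.30 in the TEAD4 samples, against 3.21 in the control, the highest control value of the 70. Mrpl12, whose product forms the flexible stalk of the large subunit, read 0.18 and 0.37 in the TEAD4 samples, against 3.08 in the control.

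Besides Mrpl22 and Mrps12, large differences above the control belonged to Mrpl24 and Mrpl1, both large-subunit genes. Mrpl24 read 0.40 and 0.57 over its start in the TEAD4 samples, against -0.34 in the control, the lowest control value of the 70. Mrpl1 read 0.64 and 0.66 in the TEAD4 samples, against -0.01 in the control. In both genes the control sat at or below input level. The top window of Mrpl24 lay elsewhere, 1775 bp downstream, and read 0.99 and 2.74 in the TEAD4 samples, against 4.29 in the control, in probes shared with Rrnad1. Across the 70 genes the TEAD4 mean and the control were related weakly and inversely (Pearson's r = -0.28, Spearman's rho = -0.21), and without Mrpl22 these were -0.19 and -0.18. Over all 15683 genes they were 0.30 and 0.34.

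**Figure D4:**
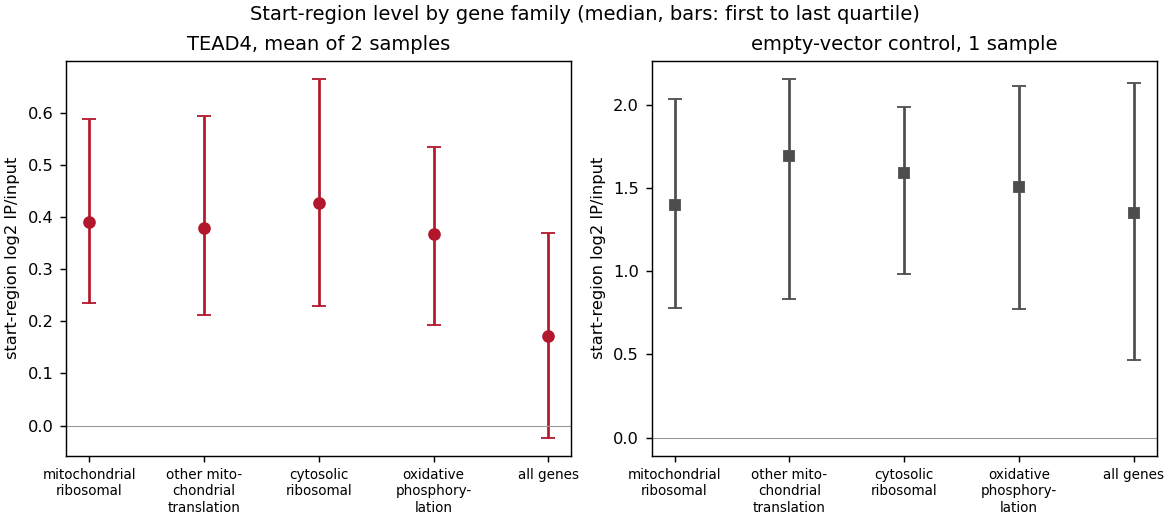
Median start-region log2 IP/input (points) with the first to last quartile of genes (bars) for the mean of the TEAD4 samples (left) and the control sample (right), on different axis ranges. The 4 mitochondrial and ribosomal families lie between 0.37 and 0.43 in TEAD4, above 0.17 for all genes.

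The other genes of mitochondrial translation were taken from a list. It held 55 genes, of which 54 matched a symbol on the arrays (Cars2 did not). Limma against input called 16 of the 54 higher (29.6%, against 23.9% of all genes) and 9 lower (16.7%, against 11.8% of all genes). Of the list 51 had a start region, with a median of 0.38 for the mean of the TEAD4 samples and 1.69 in the control. By role, 4 of 6 mitoribosomal proteins under other names, 3 of 10 translation factors, 4 of 16 aminoacyl-tRNA synthetases and 5 of 22 genes of ribosome assembly and mitochondrial RNA were called higher, shares to be read against the same 23.9% of all genes. Among the highest start regions were those of Nsun4, Sars2, Wars2 and Ptcd3.

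Nsun4, a methyltransferase of mitochondrial ribosomal RNA, read 1.74 and 0.93 in the TEAD4 samples, against 1.00 in the control. Wars2, the mitochondrial tryptophanyl-tRNA synthetase, read 0.96 and 0.82 in the TEAD4 samples, against 1.13 in the control. In Nsun4 the control lay within the range of the TEAD4 samples and in Wars2 above it. Ptcd3, a small-subunit protein under another name, read 1.06 and 0.71 in the TEAD4 samples, against 0.13 in the control. Only 1 of the 54 genes of the list (1.85%) had a window that exceeded input 2-fold in both TEAD4 samples, where 5.19% of all genes did. It was Chchd1, also a small-subunit protein. The window read 2.17 and 1.90 in the TEAD4 samples, against 0.69 in the control, at -745 bp from its start.

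Other families of widely expressed genes had like start-region medians. The median start-region level for the mean of the TEAD4 samples was 0.43 over 92 cytosolic ribosomal protein genes and 0.37 over 78 oxidative phosphorylation genes, against 1.59 and 1.51 in the control. Limma against input called 57 of 92 cytosolic ribosomal protein genes higher (62.0%) and 25 of 80 oxidative phosphorylation genes (31.2%), where 23.9% of all genes were. For scale, the top window of Ankrd1, a cardiac and skeletal muscle ankyrin repeat gene, read 1.84 and 2.28 in the TEAD4 samples and -0.01 in the control. That of Ankrd2 read 2.95 and 2.61 against -0.53, and that of Thbs1 2.36 and 2.34 against -0.66. Over its start Ankrd1 read 1.83 and 2.04, against -0.09 in the control. The top windows of Ankrd2 and Thbs1 lay away from the start, at 1362 and -1127 bp. Their start regions were below the control: Ankrd2 read 0.60 and 0.30 against 0.96, and Thbs1 0.57 and 1.27 against 1.56. The top window of Mrpl22 (2.12 and 2.85, against -0.03 in the control) was of the size of these 3 genes' top windows. By the lower TEAD4 sample the next of its family was Mrpl33, with 1.27 and 1.67 against 0.48 in the control. The top window of Mrpl24 had a higher mean than that of Mrpl33 (1.87 against 1.47), but its samples were apart (0.99 and 2.74) and below the control (4.29).

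Sequence elements in the promoters were counted in the RefSeq windows, which were given for 63 of the 72 genes in 69 windows of 300 bases. Mrpl4, Mrpl13, Mrpl15, Mrpl19, Mrpl38, Mrpl54, Mrps28, Mrps34 and Mrps35 had none. The TEAD element GGAATG, on either strand, was in 11.6% of the windows of these genes and in 14.7% of all 32851 windows. The ETS element CCGGAAG was in 33.3% against 8.86%, the YY1 element AAGATGG in 17.4% against 6.34%, and the palindromic NRF1 element in 4.35% against 0.971%. The letters of CCGGAAG and AAGATGG can overlap, since the first ends and the other begins with AAG. Matches are a description of letters, not of bound sites.

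The 8 genes with GGAATG or CATTCC were Mrpl1, Mrpl22, Mrpl44, Mrpl45, Mrpl46, Mrpl50, Mrps11 and Mrps22. The stretches of 30 bases below have 1 match each in capitals, for the genes other than Mrpl22 that had a start-region level, on the gene's strand of GRCm38.p6. Mrpl46 and Mrps11 share the same bases on opposite strands, and the Mrpl46 stretch holds a further match, left in lower case. Mrpl1 and Mrps22 each had a further CATTCC in the promoter window, at -195 and -235, which is not printed.
Mrpl50, chr4:49521136-49521165 (-): actacatttcccGGAATGcataggtctggg
Mrpl45, chr11:97315549-97315578 (+): gttaaggaaccaGGAATGcagcaaccagag
Mrpl1, chr5:96209872-96209901 (+): taaaaataagaaGGAATGaataattaatta
Mrpl46, chr7:78783129-78783158 (-): cctcccccaaagGGAATGgttcattccact
Mrps22, chr9:98601792-98601821 (-): gggcatatagctCATTCCatacagtgcttg
Their start regions did not stand at 1 level. The median over the 7 with a start-region level was 0.65, against 0.38 over the 54 without the element, for the mean of the TEAD4 samples. Mrpl45 read 1.15 and 0.77 in the TEAD4 samples, against 0.46 in the control. Mrpl46 read 0.47 and 0.42, against 0.43 in the control. Over all genes the medians were 0.19 with the element and 0.18 without. In the control the medians ran the other way, 0.46 over the 7 genes and 1.39 over the 54. These differences were not tested.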

How the data were processed

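Promoter ChIP-chip arrays were read in 2 TEAD4 samples and 1 control sample on 2 designs. The authors' processed intensity values came from Feature Extraction software (Agilent, version 9.5.3.1), per the file headers, with background subtracted and 1 linear dye factor per channel. The deposited log10 ratios, also the series matrix values, are IP over input from these intensities and are not centred. For the probe coordinates the sources used here name no genome build.

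Log2 of IP over input was computed from the deposited processed intensities and centred on each array's median, without loess or quantile steps. Control spots, probes without a position and non-uniform spots were left out, which kept 236180 and 235690 probes on the designs. Windows of at least 3 probes (428020 in all) were tested within each design with limma 3.58.1 in R 4.3.3, the TEAD4 mean against 0 (input) and against the control, with Simes p-values per gene and Benjamini-Hochberg adjustment over all genes, two-sided, at 0.05. The direction of a gene is that of its window with the lowest p. The only residual degree of freedom (1) came from the TEAD4 duplicates, and the control was assumed to vary like them. That assumption was not tested, and the SD over windows was 1.04 in the control, against 0.38 and 0.40 in the TEAD4 samples. The window and limma steps were tested on simulated data, in which every sample, the control included, carried shuffled differences between the TEAD4 duplicates. That setting had neither a wider control nor likeness between neighbouring probes, so it does not test the calls against the real control. Rules of size and start-region levels carry no test. Precision is limited by the number of arrays; on the control arrays 97.0% and 97.4% of the start-region probes of these genes had IP signal well above background, and on the TEAD4 arrays all had.

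Named genes were those with a window 2-fold over input in both TEAD4 samples, the 6 highest and 4 lowest start regions, the 4 largest and 4 smallest differences from the control, the 3 highest control values, and the 5 highest genes of the translation list, of which 1 is not reported here. Genes, lists and rules were chosen with earlier results of these data known. Alternatives were normexp, loess, scaled arrays, other windows, thresholds, probe filters and left-out samples; leaving out Mrpl22 was added after seeing the data. Promoter sequences and current symbols are from RefSeq, GRCm38.p6.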

Additional observations from a re-analysis of the deposited data

How the results depend on the processing

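Counts of mitochondrial ribosomal protein genes moved with the processing. Counts over all genes are given for few of these settings, so most of the changes cannot be read as particular to these genes. The 6 genes 2-fold over input became 3 with normexp, 16 with arrays brought to a common spread (median absolute deviation), 2 with 1000 bp windows, 18 at 1.5-fold and 1 at 3-fold, and 8 to 17 with 1 TEAD4 sample left out. The 1 gene 2-fold over input and control became 3 with normexp and with loess, 6 with scaled arrays, 5 at 1.5-fold, and 2 to 4 with 1 TEAD4 sample left out. Mrpl22 was among them under each of these settings. The 3 genes that limma called lower against input became 0 with normexp (49 of all genes), 7 with loess and 5 with 1000 bp windows. Against the control, the 13 higher became 2, 26 and 1 with normexp, loess and scaled arrays, and the 52 lower became 3 with normexp and 0 with scaled arrays, where all genes gave 34. The 20 genes called higher against input ranged from 14 to 25, with 12 to 20 of the 20 kept.

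The median start-region level of 0.39 was 0.33 with normexp, 0.42 with loess, 0.58 with scaled arrays, 0.38 within 250 bp, 0.25 within 1000 bp and 0.34 to 0.36 with 1 TEAD4 sample left out, against 0.18, 0.18, 0.26, 0.19, 0.12 and 0.15 to 0.20 over all genes; without Mrpl22 it was 0.38. Among single genes, the top window of Mrpl24 turned to 0.69 above the control with scaled arrays, and Mrpl43 was called lower against input with 1000 bp windows (limma adjusted p = 0.0089). The causes were not tested. Limma counts with 1 TEAD4 sample left out were not run, since no residual degree of freedom is left. No paired analysis was possible because there was only 1 control sample. Low IP signal on the control arrays limits every comparison with the control.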

Other observations

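Base composition of the RefSeq promoter windows is given as a description. The median GC content was 57.8% over the 61 mitochondrial ribosomal protein genes with a promoter window and a start-region level, and 58.3% over the 10020 such genes in all, and the median number of CpG dinucleotides per window was 21 and 17. Across the 61 genes, Spearman's rho between GC content and the start-region level was 0.007 for the mean of the TEAD4 samples and 0.29 for the control, where over all genes it was 0.32 and 0.62. The genes share arrays and are not independent.

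Genes with the ETS element CCGGAAG had a median start-region level of 0.44 over 22 genes for the mean of the TEAD4 samples, against 0.38 over the 39 without it, and 1.51 against 1.18 in the control. Over all genes these medians were 0.31 against 0.15 for the TEAD4 mean and 1.67 against 1.29 in the control.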
